A study of Danio rerio with 8 samples.

Results

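The cytosolic ribosomal protein genes were taken as all rows of the deposited expression table whose symbol is rpl, rps or rplp followed by a digit, leaving out the rps6k kinases and rows without ratio values. The rule matched 81 transcript rows, and keeping the row with the highest mean for each symbol left 78 genes among 14581 rows. By name alone, 46 of these were counted as large-subunit genes, rpl7l1 among them, and 32 as small-subunit genes. All 78 passed the expression filter of a mean of at least 1 RPKM (reads per kilobase of transcript, scaled by library depth), which 10889 rows passed in all.

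The study compared trunk tissue of zebrafish embryos at 38 to 40 hours post fertilization, by genotype and by region along the body. Mutants carried the genotype p162/p162 at foxc1a, which encodes a forkhead factor of the somites and other mesoderm. Their siblings carried the label p162/+, that is, 1 mutant allele, while the design text called them wild type, so the siblings may themselves carry the allele. Anterior segments (AS) were the first 6 somitic segments, through which the pectoral fin nerves grow, and posterior segments (PS) were segments 7 to about 12; heads and yolks had been removed. Each of the 4 groups had 2 libraries, here called replicates 1 and 3: mutant AS, sibling AS, mutant PS and sibling PS. The labels do not say how many embryos went into a library or whether replicates came from separate clutches, so p-values measure only the spread between these libraries.

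A ribosome is built from ribosomal RNA and one copy of most of its proteins, so cells make these proteins in near-equal numbers. In vertebrates the mRNAs are abundant, carry a 5′ terminal oligopyrimidine (TOP) tract, and are controlled largely at translation through mTOR signalling. Growing and dividing cells make more ribosomes than resting ones, and in zebrafish and human loss of single ribosomal proteins can stabilise p53 and impair red blood cell formation.

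The labels were checked against the data. foxc1a read 19.3 and 16.3 RPKM in mutant AS, against 18.1 and 16.3 RPKM in sibling AS, and 9.02 and 7.74 RPKM in mutant PS, against 7.74 and 7.32 RPKM in sibling PS. Its RNA level thus does not tell the genotypes apart (limma adjusted p = 0.934 in AS). The regions were told apart by the hox genes, all 9 anterior ones being called higher and all 10 posterior ones tested being called lower in AS than in PS in both genotypes. The table holds no read counts. Rows at 0 made up 17.5% of mutant AS replicate 3 and 4.59% to 8.01% of each other library, and the spacing of its low values put it at 1.07% or 2.14% of the reads of sibling PS replicate 3, depending on whether the smallest step is 1 read or a pair. The mutant AS replicates also differed most from each other. Their root mean square replicate SD over all rows tested was 0.36 in log2(RPKM + 1), against 0.18 to 0.20 in the other 3 groups. The family's medians and counts of calls that rest on mutant AS are therefore also given without each of these libraries.

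Ribosomal protein genes were among the most abundant transcripts in the trunk. By mean RPKM over the 8 libraries, 76 of the 78 lay in the top 200 rows and 57 in the top 100, and 68 had a mean of at least 1000 RPKM. Outside the top 200 lay rpl7l1, a relative of rpl7, at 60.4 RPKM. The means of the 76 genes in the top 200 ran from 486 to 2985 RPKM, a 6.14-fold range, with quartiles at 1231 and 1699 RPKM. Large-subunit genes had a median level of 1470 RPKM and small-subunit genes 1431 RPKM.

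The highest levels belonged to stalk proteins and to rps2, a small-subunit protein at the mRNA entry site. rplp1, which with rplp0 and rplp2 forms the stalk that recruits elongation factors, read 4333 and 3032 RPKM in mutant AS, 3108 and 2810 RPKM in sibling AS, 2943 and 2804 RPKM in mutant PS, and 2378 and 2470 RPKM in sibling PS. rps2 averaged 2974 RPKM and rplp0 2768 RPKM over all libraries. Others at the high end were rps20 at 2188, rpl7a at 2167, rps7 at 2131, rps24 at 2128, rpl37 at 2096 and rpl39 at 2032 mean RPKM. At the low end of these 76 stood rpl31 at 486, rpl22l1 at 518, rps26 at 601 and rplp2 at 602 mean RPKM.

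**Figure D1:**
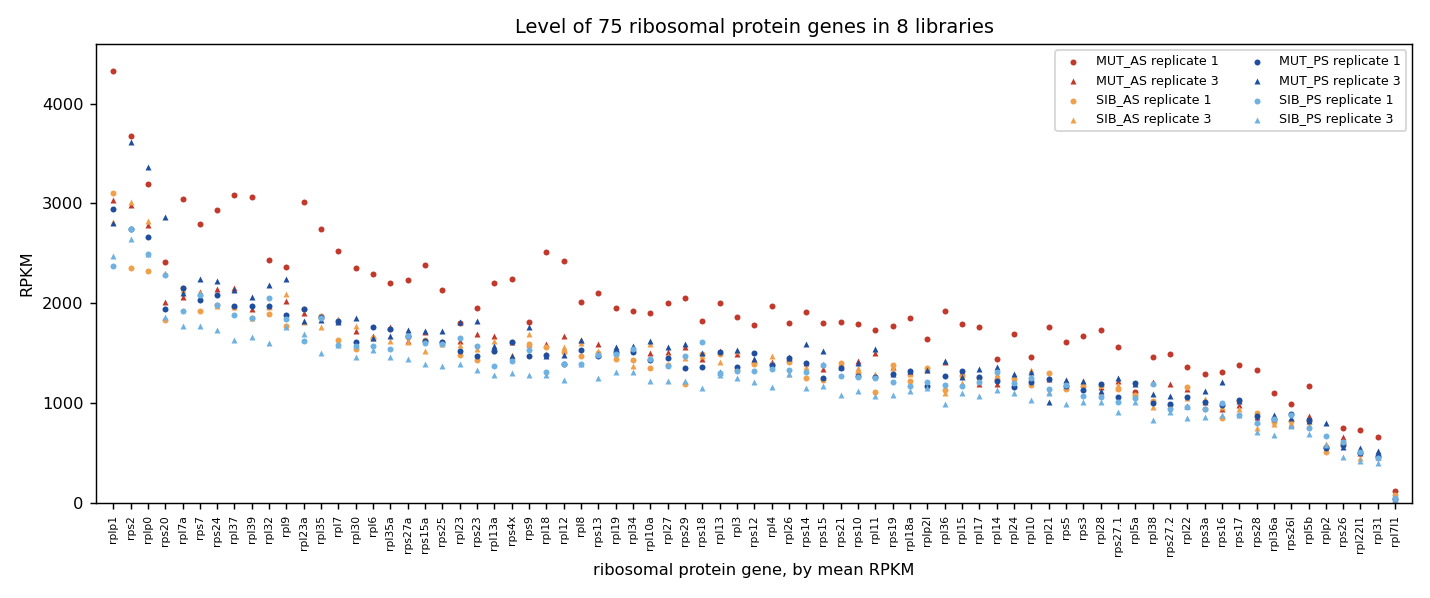
RPKM (vertical axis) of 75 of the 78 ribosomal protein genes in each of the 8 libraries, with genes ordered by mean from left to right; colour gives the group and shape the replicate. The order of the genes was similar across libraries, mutant AS replicate 1 lay highest for 72 of 78 genes, and rpl7l1 lay far below the others plotted.

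The order of the genes was nearly the same in every library. Spearman correlations between libraries over the 78 genes, which share the same transcript lengths and scaling, lay between 0.893 and 0.980 over all 28 pairs. The libraries differed mostly by a shift of the whole family. Mutant AS replicate 1 was the highest library for 72 of 78 genes and sibling PS replicate 3 the lowest for 64. The highest library exceeded the lowest by a median of 1.62-fold over the 76 abundant genes, and the coefficient of variation of a gene across the 8 libraries had a median of 15.6%. rpl5a, which with rpl11 carries the 5S ribosomal RNA, varied least, at 5.91%, and the highest value among the 76 was 26.9%. As a yardstick, the 515 other rows with a mean of at least 100 RPKM had a median of 30.5%.

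As a share of the summed RPKM of a library, the family took 26.7% and 23.4% in mutant AS, 22.1% and 22.3% in sibling AS, 20.8% and 22.1% in mutant PS, and 20.4% and 18.7% in sibling PS. Both mutant libraries lay above both sibling libraries in each region, and both AS libraries lay above both PS libraries in each genotype. In AS the mutant share averaged 25.0% ± 2.38 and the sibling share 22.2% ± 0.141 (SD, n = 2 each), a ratio of 1.13. In PS it averaged 21.4% ± 0.892 in mutants and 19.6% ± 1.23 in siblings (SD, n = 2 each), a ratio of 1.095. Within mutants the share was 1.17 times as high in AS as in PS, and within siblings 1.13 times. With 2 libraries against 2, an exact two-sided permutation test cannot go below p = 0.33, which is what each of these gave. Over both regions the mutant share was 23.2% and the sibling share 20.9%, a ratio of 1.11 with an exact two-sided permutation p = 0.0556, the smallest that permuting genotypes within regions can give. Between regions the share was 23.6% in AS and 20.5% in PS, a ratio of 1.15, also with the smallest exact permutation p of 0.0556. Both tests took AS and PS libraries as independent, though the labels do not say whether they came from the same embryos. If they did, the smallest possible p of each test would be larger. The mutant to sibling ratio in AS was 1.05 without mutant AS replicate 1 and 1.203 without mutant AS replicate 3, and the AS to PS ratio in mutants lay between 1.09 and 1.25 when any library was left out.

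Fast muscle transcripts moved opposite to these shares, and red blood cell transcripts also varied between libraries. Both are large enough to enter the total. The 20 fast muscle markers together held 4.00% and 5.16% of RPKM in mutant AS, 6.61% and 8.64% in sibling AS, 13.8% and 14.3% in mutant PS, and 15.1% and 18.1% in sibling PS. Between genotypes, 62.1% of all rows had a higher mean in mutants in AS and 63.8% in PS, with 0.0459% and 0% called. Against that background, all 12 erythroid markers tested had a higher mean in mutants in both regions, none of them passing the test. Together they held 0.864% and 0.308% in mutant AS, 0.355% and 0.126% in sibling AS, 1.40% and 0.449% in mutant PS, and 0.259% and 0.206% in sibling PS. The 9 markers of periderm and epidermis, the outer layers of the skin, held 1.46% and 2.36% of RPKM in mutant AS, 1.27% and 1.70% in sibling AS, 2.12% and 3.34% in mutant PS, and 2.16% and 2.40% in sibling PS. In each region 8 of the 9 had a higher mean in mutants, against 62.1% of all rows in AS and 63.8% in PS. Their medians were 0.36 in AS and 0.23 in PS on the log2(RPKM + 1) scale, and none passed the test. The part of these skin transcripts in the share was not tested. Fewer muscle cells and less muscle RNA per cell cannot be told apart in such bulk tissue. When the rows of both marker lists were left out of the total, the ratio of mutant to sibling share was 1.09 in AS and 1.07 in PS. The ratio of AS to PS then came to 1.04 in mutants and 1.02 in siblings, and pooled over genotypes to 1.03 (exact permutation p = 0.5). Leaving out the 100 highest rows outside the family instead turned the regional difference round, to 0.949 (exact permutation p = 0.167), while mutants kept a higher share than siblings, by 1.09 in AS and 1.06 in PS. The higher share in AS thus depended on which other abundant transcripts were counted in the total. The mean share stayed higher in mutants under these alternatives, but in AS mostly through mutant AS replicate 1. Without the marker rows mutant AS replicate 3 held 24.80%, against 23.91% and 24.62% in sibling AS. Without the 100 highest other rows it held 31.97%, against 30.66% and 31.88%.

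**Figure D2:**
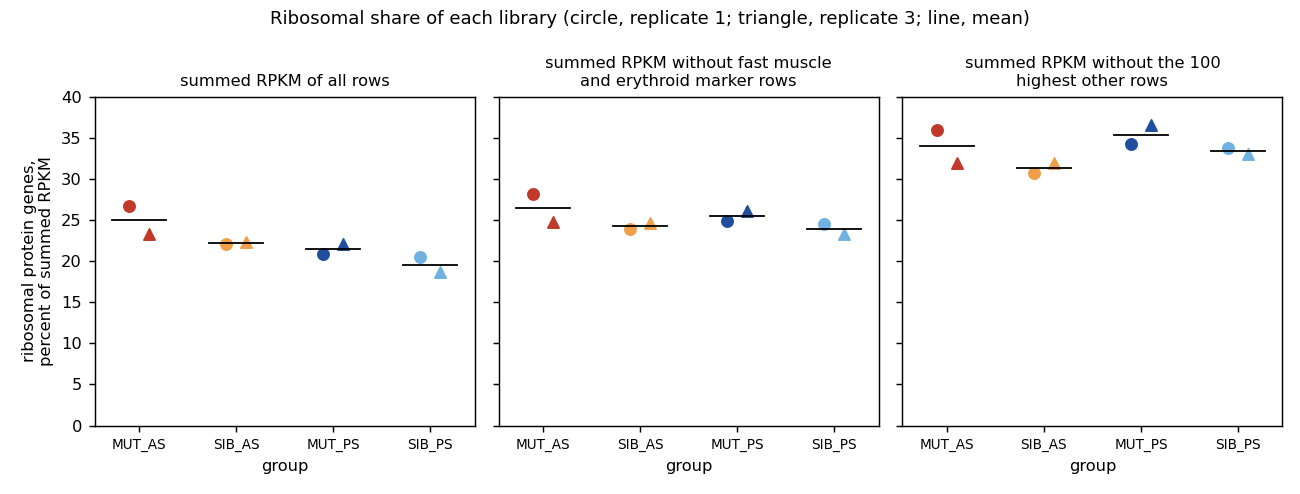
Percent of summed RPKM held by the 78 ribosomal protein genes (vertical axis, from 0) in each library, by group; circles are replicate 1, triangles replicate 3 and lines group means. Over all rows (left) the share ran from 26.7% in mutant AS replicate 1 to 18.7% in sibling PS replicate 3, and the order of AS and PS turned round when the 100 highest other rows were left out (right).

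Large and small subunit genes shifted together. The summed RPKM of large-subunit genes was between 1.43 and 1.499 times that of small-subunit genes in every library. It averaged 1.49 in mutant AS and 1.48 in sibling AS (n = 2 each, exact permutation p = 1), and 1.46 in mutant PS and 1.47 in sibling PS (n = 2 each, exact permutation p = 1).

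The first gene-level comparison asked how foxc1a mutants differed from siblings in the anterior segments. Of the 78 genes, 77 had a higher mean in mutant AS, with differences between -0.16 and 0.57 and a median of 0.27 in log2(RPKM + 1), but none passed the limma test at an adjusted p of 0.05, and 4 had an unadjusted p under 0.05. Over all rows tested, 0.0459% were called, 11.7% had an unadjusted p under 0.05, 62.1% had a higher mean in mutant AS, and the median difference was 0.08. Both mutant libraries lay above both sibling libraries for 40 genes, or 51.3%, against 27.0% of all rows. For 1 gene both lay below, against 11.7% of all rows, and for 37 the groups overlapped. The median SE of a single gene's difference was 0.18.

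rpl36, a large-subunit protein, had the largest difference. It read 1926 and 1405 RPKM in mutant AS, against 1127 and 1094 RPKM in sibling AS, without overlap. The difference was 0.57 (SE 0.18, limma adjusted p = 0.331). rps27.2, 1 of a pair of rps27 copies, read 1489 and 1187 RPKM in mutant AS, against 984 and 975 RPKM in sibling AS (difference 0.44, limma adjusted p = 0.350). rpl11, which in mammals binds Mdm2 and stabilises p53 when ribosome assembly fails, read 1728 and 1498 RPKM in mutant AS, against 1113 and 1293 RPKM in sibling AS (difference 0.42, limma adjusted p = 0.399). rps29, a small-subunit protein, differed by 0.44, and rpl38, whose loss in mouse alters skeletal patterning, by 0.42. In each of these 5 genes the mutant libraries lay above the sibling libraries. Their sizes rested on single libraries: without mutant AS replicate 1 the difference was 0.34 for rpl36, 0.28 for rps27.2 and 0.25 for rps29, and without mutant AS replicate 3 it was 0.79, 0.60 and 0.64 in the same order. rpl36 passed the test in the second case (limma adjusted p = 0.0488). At the other end rpl5a read 1108 and 1102 RPKM in mutant AS, against 1081 and 1074 RPKM in sibling AS, a difference of 0.04. rps9, rpl14 and rplp2 were equally flat at 0.05, 0.05 and 0.06.

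The size of the anterior difference rested on mutant AS replicate 1. Without that library, the median difference of the family was 0.05, against 0.02 over all rows, and 63 of 78 genes had a higher level in the remaining mutant AS library, against 52.2% of all rows. None of them was called, while 10.1% of all rows were. Without mutant AS replicate 3, the library with most rows at 0, the median was 0.47, beside 0.15 over all rows. Then 77 genes were higher, against 68.2% of all rows, and 4 were called, all higher, against 0.716% of all rows called and 0.202% called higher. In both cases the lone mutant AS library was assumed to vary like the libraries of the other groups. Under scaling of each library by the median of all rows, the family's median was 0.19, 73 of 78 genes were higher in mutant AS, against 50.1% of all rows, and none was called, against 0.0367% of all rows.

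In the posterior segments the same comparison gave a smaller and more even difference. Of the 78 genes, 76 had a higher mean in mutant PS, against 63.8% of all rows, with a median of 0.18 beside 0.06 over all rows and a range from -0.05 to 0.35. None was called, as was 0% of all rows, and none had an unadjusted p under 0.05, against 2.67% of all rows. Both mutant PS libraries lay above both sibling PS libraries for 50 genes, or 64.1%, against 23.8% of all rows, and below them for 0, against 8.93% of all rows. Leaving out any of the 8 libraries in turn kept the median between 0.11 and 0.26.

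rpl36 was again among the largest differences, with 1273 and 1424 RPKM in mutant PS, against 1182 and 992 RPKM in sibling PS, a difference of 0.31 (limma adjusted p = 1). rps14, whose loss in human bone marrow underlies the anaemia of the 5q- syndrome, read 1400 and 1594 RPKM in mutant PS, against 1306 and 1153 RPKM in sibling PS, a difference of 0.28. rplp0 read 2666 and 3364 RPKM in mutant PS, against 2494 and 2494 RPKM in sibling PS, a difference of 0.26. The groups did not overlap in these 3 genes. rps27.1 and rpl11 each differed by 0.27 and rpl5a by 0.21. The difference of rpl36 was 0.19 without sibling PS replicate 3, and that of rps27.1 was 0.15 without mutant PS replicate 3. rpl7l1 at -0.05 and rpl21 at -0.01 were the 2 genes with a lower mean in mutant PS.

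**Figure D3:**
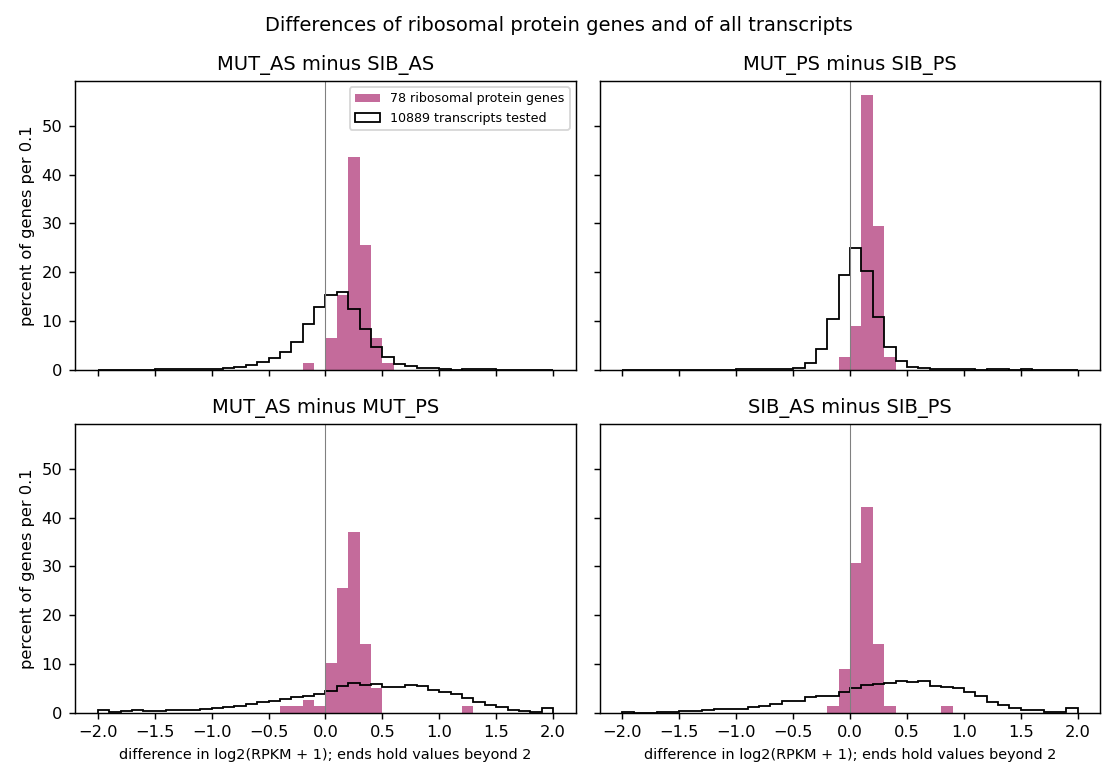
Percent of genes (vertical axis) in each 0.1-wide bin of the difference in log2(RPKM + 1) (horizontal axis), for the 78 ribosomal protein genes (filled) and all 10889 rows tested (line), in 4 comparisons. The family formed a narrow peak above 0 in every panel, with medians of 0.27 and 0.18 between genotypes (top, AS then PS) and 0.21 and 0.13 between regions (bottom, mutants then siblings), where all rows spread widely around a median of 0.41 and 0.40.

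The next comparisons asked how the anterior differed from the posterior segments within a genotype. Most transcripts differed between these regions while the ribosomal protein genes mostly did not pass the test. In mutants 2 of 78 were called, both higher in AS, against 55.0% of all rows called, 44.0% higher and 10.9% lower, with a median of 0.21 beside 0.41 over all rows. Both mutant AS libraries lay above both mutant PS libraries for 26 genes and below them for 1, against 57.2% and 17.5% of all rows. In siblings 1 of 78 was called, against 51.2% of all rows, 41.6% being called higher and 9.62% lower in AS. An unadjusted p under 0.05 was reached by 1 of 78, against 58.2% of all rows. The differences had a median of 0.13, against 0.40 over all rows, and 65 of 78 lay within 0.2 of no difference, against 18.3% of all rows. Both sibling AS libraries lay above both sibling PS libraries for 41 genes, or 52.6%, and below them for 0, against 63.2% and 20.0% of all rows.

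rpl7l1 was the gene called in both genotypes. Its relative in yeast acts in assembly of the large subunit. It read 112 and 73.6 RPKM in mutant AS, against 39.7 and 36.1 RPKM in mutant PS, and 73.8 and 69.3 RPKM in sibling AS, against 42.7 and 36.2 RPKM in sibling PS. All 4 AS libraries lay above all 4 PS libraries. It rose by 1.24 in mutants (SE 0.20, limma adjusted p = 0.000796) and by 0.85 in siblings (SE 0.20, limma adjusted p = 0.00674). Without sibling PS replicate 3 the sibling call was lost (difference 0.73, limma adjusted p = 0.0645), as it was when libraries were scaled to the median of all rows (difference 0.43, limma adjusted p = 0.0915). The mutant call held in both cases. rpl7 itself, a structural protein, exceeded rpl7l1 22.5 and 24.9 times in mutant AS and 45.9 and 50.3 times in mutant PS, and 22.2 and 26.6 times in sibling AS and 37.1 and 43.6 times in sibling PS.

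rpl12, a protein at the base of the stalk, was the other gene called in mutants. It read 2427 and 1669 RPKM in mutant AS, against 1393 and 1480 RPKM in mutant PS, a difference of 0.49 at a limma adjusted p of 0.0499. The call was lost without mutant AS replicate 1 (difference 0.22, limma adjusted p = 0.242) and without any other library but mutant AS replicate 3, as well as without a filter, with either scaling, with weights per group and with the 2 groups fitted alone. In siblings rpl12 read 1515 and 1559 RPKM in AS, against 1386 and 1231 RPKM in PS. Among the next in order in mutants were rps27.2 at 0.37, rpl18 at 0.43 and rpl21 at 0.41, with limma adjusted p between 0.0702 and 0.103. The differences were 0.21 for rps27.2 and 0.10 for rpl18 without mutant AS replicate 1. When mutant AS replicate 3 was left out they were 0.53 and 0.76, and both genes passed the test (limma adjusted p = 0.00748 and 0.000654). In siblings they included rpl22 and rplp1, with 0.30 and 0.29. Among the lowest were rplp2 at -0.23, rpl5a at -0.11 and rps20 at -0.10 in mutants, and rplp2 at -0.19 in siblings.

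Calls between regions in mutants again depended on the mutant AS libraries. Without mutant AS replicate 3, 75 of 78 genes were higher in AS, against 71.7% of all rows, and 47 were called, all higher, against 62.7% of all rows called and 49.7% called higher. Without mutant AS replicate 1, 43 of 78 were higher, against 69.7% of all rows, the family's median was 0.01, and 1 gene was called higher, against 56.1% of all rows called and 43.1% called higher. The regional direction also depended on scaling, since the median of all rows was itself 0.40 to 0.41 higher in AS. Relative to that median, 4 of 78 genes were higher in AS than PS in mutants, against 48.5% of all rows, and 1 of 78 in siblings, against 48.8% of all rows, with medians of -0.22 and -0.29. Then 6 genes were called in mutants, 5 lower, among them rpl5a, rplp2, rpl14 and rps26l, and rpl7l1 higher, against 44.4% of all rows. In siblings 4 were called lower, rpl5a, rplp2, rps26l and rpl34, against 39.8% of all rows called.

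Whether the genotype difference itself differed between regions was tested as an interaction. None of the 78 genes was called, as was 0% of all rows, and none had an unadjusted p under 0.05, against 2.74% of all rows. The interaction was above 0 for 61 of 78 genes, against 53% of all rows, with a median of 0.09 over the family and of 0.02 over all rows, and the median SE of a single gene was 0.25. The sign of the family's median was not stable: it lay between -0.13 and 0.29 when a library was left out, with the lowest value without mutant AS replicate 1.

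Once the shared shift was removed, most genes of the family kept a similar relative level across libraries. Each gene was set against the median of the 78 genes in the same library, and the SD of that relative value over the 8 libraries had a median of 0.08 in log2, with 51 of 78 genes under 0.1. rps10 was the steadiest, at 0.03. Among the most variable were rpl7l1 at 0.48, rplp2 at 0.28 and rps20 at 0.21. Subtracting the family's own median lowers the spread by itself, and no other rows were set beside these values. The main axis of what remained, the first principal component, held 53.3% of the variance. Its scores were 0.65 and 0.19 in mutant AS, 0.33 and 0.002 in sibling AS, and below 0 in every PS library. rpl7l1 and rplp2 had loadings of 1.17 and -0.72 on it, and this pattern was not tested. With libraries scaled to the family median, rpl7l1 was the sole member called in either regional comparison, at 1.03 in mutants (limma adjusted p = 0.00116, background 44.0%) and 0.69 in siblings (limma adjusted p = 0.00907, background 40.4%). No member was called between genotypes, where 0.0643% of all rows were called in AS and 0.0276% in PS.

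Relative to the family, rplp2 and rps20 had extremes opposite to those of rpl7l1 in mutant AS replicate 1 and mutant PS replicate 3. Neither separated all AS from all PS libraries. Sibling AS replicate 3 lay above mutant PS replicate 1 in both, at -1.28 against -1.34 for rplp2 and 0.69 against 0.49 for rps20. rplp2 read 555 and 578 RPKM in mutant AS, 503 and 586 RPKM in sibling AS, 548 and 800 RPKM in mutant PS, and 670 and 575 RPKM in sibling PS. It was lowest relative to the family in mutant AS replicate 1, at -1.74, and highest in mutant PS replicate 3, at -0.87. rps20 lay 0.38 above the family median in mutant AS replicate 1 and 0.97 above it in mutant PS replicate 3. rpl7l1 was highest relative to the family in the first of these libraries and lowest in the second. Relative to the family median, in both rplp2 and rps20 the mutant PS libraries lay on either side of the sibling PS libraries.

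**Figure D4:**
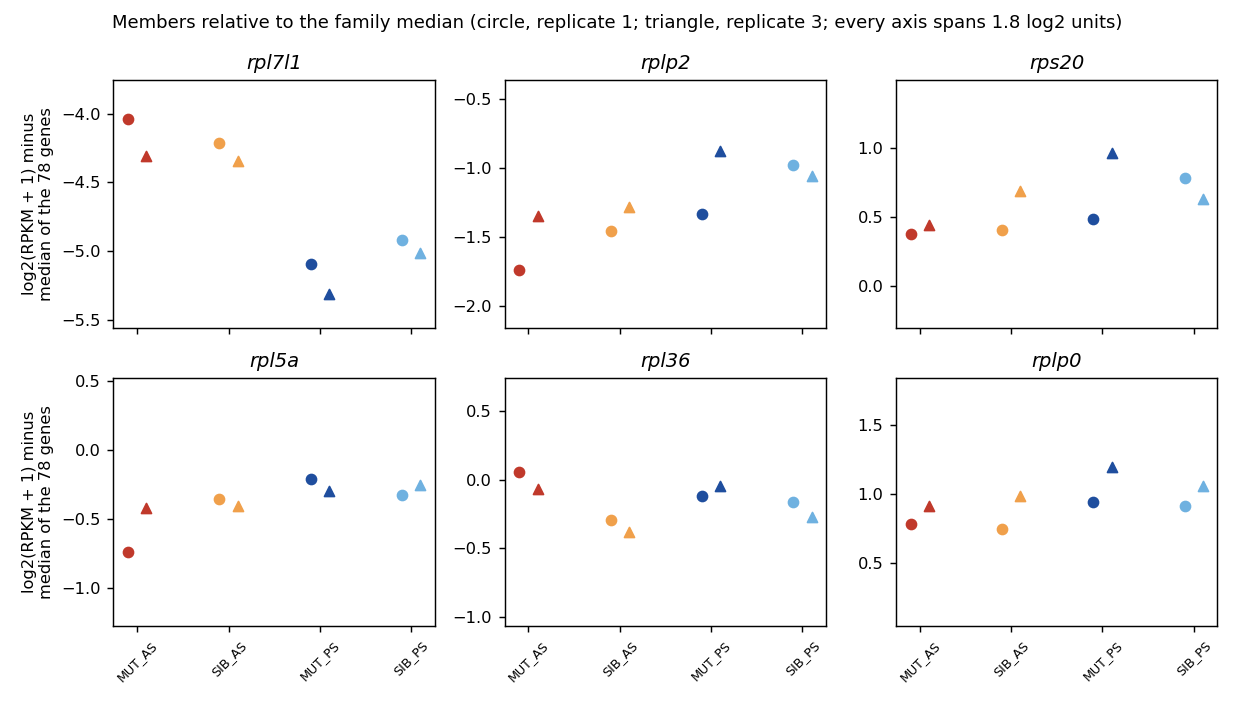
log2(RPKM + 1) of 6 ribosomal protein genes minus the median of the 78 genes in the same library (vertical axis; every panel spans the same number of log2 units), by group; circles are replicate 1 and triangles replicate 3. rpl7l1 separated all AS from all PS libraries, while in rplp2 and rps20 the mutant PS replicates lay on either side of both sibling PS libraries.

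Zebrafish keep some ribosomal protein genes as pairs, and the pairs differed in how far the ratio of the copies moved. rps27.1 was 0.9996 to 1.21 times rps27.2 over the 8 libraries, and rps26 was 0.604 to 0.846 times rps26l. rpl22, an RNA-binding large-subunit protein whose loss in mouse is buffered by its relative, was 1.77 to 2.33 times rpl22l1. rpl5a exceeded rpl5b by 1.27 to 1.46 times in 7 libraries and fell short of it, at 0.949 times, in mutant AS replicate 1. rplp2 stood at 0.337 and 0.427 times its copy rplp2l in mutant AS, against 0.467 and 0.600 times in mutant PS, and at 0.374 and 0.441 times in sibling AS, against 0.555 and 0.500 times in sibling PS. All AS libraries lay below all PS libraries in that ratio, and it was not tested because it was singled out after its values were seen. Near-identical copies can trade reads, so such ratios are uncertain.

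Some rows share reads. rpl17 had a second row at 0.950 to 0.951 times the first in every library, rpl36a stayed at a fixed ratio to a row without a symbol (1.75 in every library), and rpl35 to a withdrawn record at 1.03. Ratios fixed this closely mean that the same reads were counted in both rows, although the design text states that each read was assigned to a single transcript. With 1 row per symbol in the total, the mutant to sibling ratio of the share was 1.13 in AS and 1.09 in PS. That step kept the partner rows of rpl36a and rpl35 in the total, so the effect of those rows was not tested.

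The name rule misses ribosomal proteins listed under other names. Matching accessions to RefSeq found 9 more genes of this kind, chosen after the data were seen, among them rpsa, rps6, rpl27a, rpl29, rack1, faua, faub and rps27l. They were as abundant as the family except rps27l and faub, at 34.9 and 14.6 mean RPKM. rpsa, the laminin-receptor protein of the small subunit, read 2669 and 2148 RPKM in mutant AS, 2004 and 2122 RPKM in sibling AS, 1901 and 2185 RPKM in mutant PS, and 1698 and 1770 RPKM in sibling PS. rps6, the target of the S6 kinases, differed by 0.10 between genotypes in AS and 0.19 in PS. rps27l, whose human counterpart is a p53 target, read 41.8 and 39.4 RPKM in mutant AS, against 27.3 and 25.7 RPKM in sibling AS, a difference of 0.60 (limma adjusted p = 0.350). None of the 9 was called in any comparison with all libraries. Of all rows, 55.0% were called between regions in mutants and 51.2% in siblings. Between genotypes, 0.0459% of all rows were called in AS and 0% in PS. Some of the 9 were called when a mutant AS library was left out, and more of all rows were then called too. Adding them raised the share to 29.2% and 25.6% in mutant AS, 24.2% and 24.4% in sibling AS, 22.7% and 24.1% in mutant PS, and 22.2% and 20.5% in sibling PS, with ratios of mutant to sibling of 1.13 in AS and 1.096 in PS.

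The rows that followed the family most closely were sought among 7008 others with a mean of at least 5 RPKM, by Pearson r with the mean log2 level of the family over the 8 libraries. They included sdr16c5b at 0.982, the withdrawn record that shares rpl35's reads at 0.968, eef1g, a subunit of the elongation factor that loads aminoacyl-tRNA, at 0.965, and prkab1b, a regulatory subunit of the energy sensor AMPK, at 0.964. These correlations share library scaling with the family and are given without a test. Mutant AS replicate 1 was the highest library in each of these rows, as it was for 72 of 78 family genes. There prkab1b read 59.9 RPKM, against 27.0 to 40.2 RPKM elsewhere, and sdr16c5b 15.0 RPKM, against 8.97 to 11.7 RPKM. How far r rests on that library was not tested.

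For the other genes of the translation system the regional counts are set against a background in which 44.0% of all rows were called higher and 10.9% lower in AS in mutants, and 41.6% higher and 9.62% lower in siblings. Genes of ribosome biogenesis and the nucleolus, which process ribosomal RNA and assemble subunits, were called higher in AS for 59 of 70 in mutants and 48 of 70 in siblings (84.3% and 68.6%), and for none lower. Their median difference was 1.06 in mutants and 0.82 in siblings, against 0.41 and 0.40 over all rows. npm1a, a nucleolar chaperone, rose by 1.78 in mutants and 1.18 in siblings. ncl, nucleolin, rose by 1.59 and 1.24, fbl, the ribosomal RNA methyltransferase fibrillarin, by 1.50 and 1.17, and dkc1, the pseudouridine synthase dyskerin, by 1.65 and 1.15, in mutants and then siblings (all limma adjusted p at or under 0.00504). Translation initiation factors were called higher in AS for 30 of 41 in mutants and 21 of 41 in siblings (73.2% and 51.2%), and lower for 0 and 1. Among them eif4a1a, an RNA helicase, rose by 1.33 in mutants and 1.13 in siblings.

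The counts of both lists depended on single libraries, as did the background. In mutants, leaving out PS replicate 3 gave 42 biogenesis and 16 initiation genes called higher, or 60.0% and 39.0%, against 30.6% of all rows. In siblings, leaving out PS replicate 3 gave 19 of 70 and 8 of 41, against 23.6% of all rows, and leaving out AS replicate 1 gave 24 and 7, or 34.3% and 17.1%, against 25.7%. Without sibling AS replicate 3, 13 initiation genes were called higher, or 31.7%, against 30% of all rows. The sibling count of initiation genes was thus near or under the background without 1 of these libraries, and that of biogenesis genes was near it without sibling PS replicate 3.

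Of 13 translation elongation genes, 6 rose and 1 fell in mutants and 3 rose and 1 fell in siblings, with medians of 0.41 and 0.19, so the shares that rose, 46.2% and 23.1%, were close to the background in mutants and under it in siblings. Of 16 other TOP mRNAs, which overlap the elongation, initiation and nucleolar lists, 11 rose and 1 fell in mutants and 6 rose and 1 fell in siblings, the 1 that fell being pabpc1b, a poly(A)-binding protein, by 0.60 in mutants and 0.58 in siblings. With all libraries, the shares that rose were 68.8% and 37.5%, above the background in mutants and close to it in siblings. The mutant share fell without mutant AS replicate 1 or mutant PS replicate 3, in the first case to near the background. Of 51 mitochondrial ribosomal protein genes, 2 rose and 1 fell in mutants and 0 rose and 2 fell in siblings, with medians of 0.18 and -0.11, far under the background in both. Their mutant count moved when a single mutant library was left out, as did the background, and the share that rose stayed under that of all rows each time. Of 15 genes of mTOR signalling and ribosomal RNA control, 5 rose in mutants and 6 in siblings, and of 12 p53 target genes, 4 rose and 1 fell in mutants and 3 rose and 1 fell in siblings. Of these 2 lists 33.3% and 33.3% rose in mutants and 40.0% and 25.0% in siblings, not above the background. The mTOR count was lower in mutants without mutant PS replicate 1 and in siblings without sibling AS replicate 1, as was the background. The neuronal markers moved with region too, and their part in these results was not tested: they held 0.128% and 0.119% of RPKM in mutant AS and 0.0482% and 0.0414% in mutant PS, and 0.161% and 0.142% in sibling AS and 0.0513% and 0.0461% in sibling PS.

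**Figure D5:**
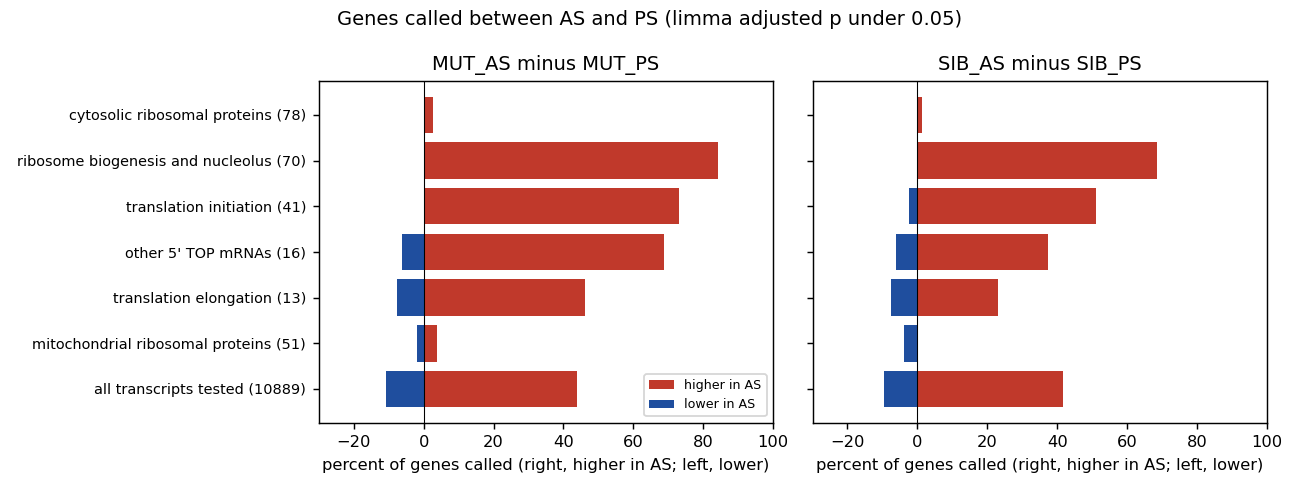
Percent of tested genes of each list (horizontal axis; higher in AS to the right, lower to the left) called between AS and PS at a limma adjusted p under 0.05, in mutants and in siblings; numbers in brackets are genes tested. Ribosome biogenesis genes were called higher in AS for 59 of 70 in mutants and 48 of 70 in siblings, while 2 and 1 of 78 cytosolic ribosomal protein genes were called and, of all rows tested, 44.0% in mutants and 41.6% in siblings were called higher.

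Between genotypes no gene of these lists was called in either region with all libraries. Without mutant AS replicate 1, when 10.1% of all rows were called in AS, 0 to 2 genes of each list were. In AS the medians were 0.18 for biogenesis, 0.18 for initiation, 0.25 for elongation, 0.31 for other TOP mRNAs and 0.21 for mitochondrial ribosomal proteins, beside 0.27 for the cytosolic family and 0.08 over all rows. In PS they were -0.08, -0.06, 0.02, 0.17 and -0.07 in the same order, beside 0.18 for the cytosolic family and 0.06 over all rows. All 16 other TOP mRNAs had a higher mean in mutant AS, against 62.1% of all rows, and 14 of 16 in mutant PS, against 63.8%. The anterior medians rested on the mutant AS libraries: without replicate 1 they were -0.10, -0.03, 0.13, 0.12 and 0.07 in the same order, and without replicate 3 they were 0.45, 0.34, 0.29, 0.50 and 0.38. The 12 p53 target genes had medians of 0.04 in AS and 0.14 in PS.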

How the data were processed

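Poly(A) RNA was sequenced from 8 libraries, 2 in each of 4 groups. Per the design text, paired reads were aligned to Zv9 (danRer7) with RUM (version not given in the sources used here). The deposited table lists RefSeq transcripts with log2(RPKM + 1) values, per the file headers; these were converted back to RPKM for levels and shares. The authors' deposited ratio columns served only to find and drop 228 fill rows, where they are empty. Differences were fitted with limma 3.58.1 (R 4.3.3, trend and robust) over 10889 rows with a mean of at least 1 RPKM and 1 mean per group, with Benjamini-Hochberg adjustment over all rows and a threshold of 0.05; fold changes are differences on the log2(RPKM + 1) scale, which understates those of low genes. The fit was also run on simulated data with independent noise in each row, so that run does not cover shifts shared by many genes of a library. Shares were compared by exact permutation tests over libraries. Without counts, no counting intervals are given. Genes are named by rank of level, p and difference and for paralogs and stalk proteins; genes named outside the rule were chosen after their values were seen. The members and lists were chosen with earlier results of these data known. RefSeq symbols (GRCz12tu, another build, so no coordinates) matched 77 of 78 accessions, and 76 kept their symbol. No sequences are shown. Some genes are counted in the totals but not reported here by name. Alternatives covered the pseudocount, filter, scaling, weights, the groups fitted, a replicate block, each library left out and the rows in the total; their effect closes the text.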

Additional observations from a re-analysis of the deposited data

Results flagged for a closer look

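In 1 gene named here every library of one contrast moved one way and every library of the other moved the opposite way. For rpl5a the mutant AS libraries at 1108 and 1102 RPKM lay below the mutant PS libraries at 1195 and 1192 RPKM, while the sibling AS libraries at 1081 and 1074 RPKM lay above the sibling PS libraries at 1054 and 1006 RPKM. The tested difference of the differences was -0.18 (SE 0.20, limma adjusted p = 0.999). It did not pass the test.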

How the results depend on the processing

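No member was called between genotypes in either region under the planned changes of pseudocount, filter, scaling, weights and fitted groups. The background moved: of 10889 rows, 0 were called in PS in the main fit, 17 with weights per group and 99 with the 2 groups fitted alone. In AS these counts were 5, 3 and 0. The mean mutant share stayed above the mean sibling share in both regions. Leaving out a library moved the family's median between 0.05 and 0.47 in AS and between 0.11 and 0.26 in PS. The regional results moved. In mutants the number called was 2, and it was 1 without a filter, 1 with family median scaling, 1 with weights per group, 1 with the 2 groups fitted alone, 6 with scaling to the median of all rows, and 1 to 47 when a library was left out. Beside these mutant counts, 5985 of 10889 rows were called in the main fit and 6017 of 14230 without a filter. With family median scaling 4786 rows were called, and with weights per group 4882. With the 2 groups fitted alone 4692 rows were called, and with scaling to the median of all rows 4832. The count of 47 came without mutant AS replicate 3, for which the share of all rows called is given above. In siblings the number called was 1, beside 5578 of 10889 rows, and it was 4 with scaling to the median of all rows, beside 4331 rows. The sibling median lay between 0.06 and 0.19 when a library was left out. The median difference between AS and PS turned round under scaling to the median of all rows, to -0.22 in mutants and -0.29 in siblings, which follows from the shift of that median. The ratio of the AS to the PS share fell to 1.04 in mutants, 1.02 in siblings and 1.03 over both genotypes without fast muscle and erythroid rows, and reversed to 0.960, 0.937 and 0.949 without the 100 highest other rows. Among single named genes, 324 alternatives left the call as it was, 10 lost it and 4 gained it. Most named genes were not called with all libraries, so staying uncalled counts as no change. For the headline results, 148 alternatives gave the same result, 21 moved it and 5 reversed it. Whether the replicate numbers pair libraries is not stated and was not tested, and the main fit did not use them. Deviations of same-numbered libraries correlated at 0.15 between genotypes in AS, 0.16 in PS, and 0.22 and 0.52 between regions in mutants and siblings. Mutant PS with sibling AS gave 0.37, and mutant AS with sibling PS gave -0.09. With the replicate number as a block, 0 members were called between genotypes in either region, beside 7 rows of 10889 in AS and 0 in PS. Between regions 3 were called in mutants and 1 in siblings, beside 6330 and 5976 rows. Read counts are not given in the table, so what depth limits was not measured; mutant AS replicate 3 had the highest share of rows at 0, at 17.5%.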
